A study of Mus musculus with 4 samples.

Results

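The 10 genes described here are immediate early genes, namely Egr1, Nr4a1, Fos, Fosb, Jun, Junb, Jund, Ier2, Ier3 and Atf3. They were chosen by name, as every spot other than a control spot whose gene name in the array files was one of these 10. Each gene had 1 probe, so they made up 10 of 39429 probes, and of 31829 gene names, on the array. Fos was the exception in spot number, since its probe was printed 10 times on each array, and the spots of a probe were averaged. RNA came from whole livers, and the mice were C57BL/6J males, 8 to 12 weeks old. The 4 fasted mice had gone 24 h without food, and the 4 refed mice had also fasted for 24 h and then had food for 2 h. There was no group fed without a fast. Each of 4 two-colour Agilent arrays (replicates 1 to 4) carried 1 fasted and 1 refed liver, with the fasted liver in Cy5 on replicates 1 and 2 and in Cy3 on replicates 3 and 4. The study asked whether changes in DNA binding by the transcription factor CREB have a part in gene expression induced by fasting, a state of raised cAMP signaling. Its arrays served to find the CREB targets that fasting induces.

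Immediate early genes are transcribed within minutes of a stimulus without new protein synthesis, because the factors that switch them on are already present. Serum response factor (SRF) with its ternary complex partners, and CREB once phosphorylated by protein kinase A, are their classical activators, and short-lived mRNAs and proteins end the response. In liver they are known for their response to partial hepatectomy, growth factors and glucagon, and Nr4a1 is a known cAMP-induced regulator of gluconeogenic genes.

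The promoters of 3 of these genes are shown because they span the range of CREB motif counts found among those with a promoter in the RefSeq table. Each run is the 250 bases before the RefSeq start in the GRCm38.p6 build, written 5′ to 3′ on the strand of the gene. Capitals mark the CREB core TGACG, the shorter form of the CREB site, which reads CGTCA where the match is on the opposite strand.
Nr4a1 (chr15:101266596-101266845, plus strand): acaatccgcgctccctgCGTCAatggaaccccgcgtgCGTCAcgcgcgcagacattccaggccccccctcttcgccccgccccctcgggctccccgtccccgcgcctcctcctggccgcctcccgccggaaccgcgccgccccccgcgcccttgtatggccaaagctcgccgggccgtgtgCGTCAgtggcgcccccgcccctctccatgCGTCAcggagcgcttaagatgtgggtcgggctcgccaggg
Fos (chr12:85473640-85473889, plus strand): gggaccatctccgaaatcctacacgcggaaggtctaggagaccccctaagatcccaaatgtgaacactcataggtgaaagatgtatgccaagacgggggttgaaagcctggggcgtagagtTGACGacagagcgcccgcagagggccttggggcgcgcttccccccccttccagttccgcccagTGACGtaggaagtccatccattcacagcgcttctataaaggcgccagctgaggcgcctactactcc
Jun (chr4:95052223-95052472, minus strand): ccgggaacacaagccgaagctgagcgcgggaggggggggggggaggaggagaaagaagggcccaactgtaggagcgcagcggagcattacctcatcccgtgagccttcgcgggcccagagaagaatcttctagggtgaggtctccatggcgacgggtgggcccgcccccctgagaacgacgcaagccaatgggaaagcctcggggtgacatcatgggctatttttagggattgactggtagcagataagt
Nr4a1 held 4 cores, all on the opposite strand, Fos held 2 on its own strand, and Jun held none. The Jun sequence does hold a near match to the longer form of the site, given below. Of all 32851 RefSeq promoters of the same length, 17.8% held at least 1 core on either strand, 3.90% at least 2 and 0.137% at least 4.

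Of the 10 genes, 8 had a promoter in the RefSeq table, and 5 of the 8 held a core. Egr1 and Ier2 had none there, so no motif was sought in their promoters. Fosb, Junb and Atf3 held 1 each, and Jun, Jund and Ier3 held none. The other motifs searched on both strands were the full CREB site TGACGTCA, which contains the core on both strands, the AP-1 site TGANTCA, the SRF CArG box, the EGR site GCGGGGGCG and the TATA box TATAAA. Matches had to be exact, so a site with a mismatch, which the study's definition of a full CREB site admits, is not counted. Such sites occur in these promoters, for example tgacatca in the Jun sequence printed above, which differs from TGACGTCA at 1 base. None of the 8 promoters matched the full CREB site, the AP-1 site or the CArG box, which 1.55%, 6.75% and 1.47% of all promoters held. The EGR site, which Egr1 protein recognizes, was in the promoters of Nr4a1 and Fosb and in 2.57% of all promoters. The TATA box was in the promoter of Fos and in 12.4% of all promoters. These are matches of letters in this window only, and no binding was measured at them here.

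**Figure D1:**
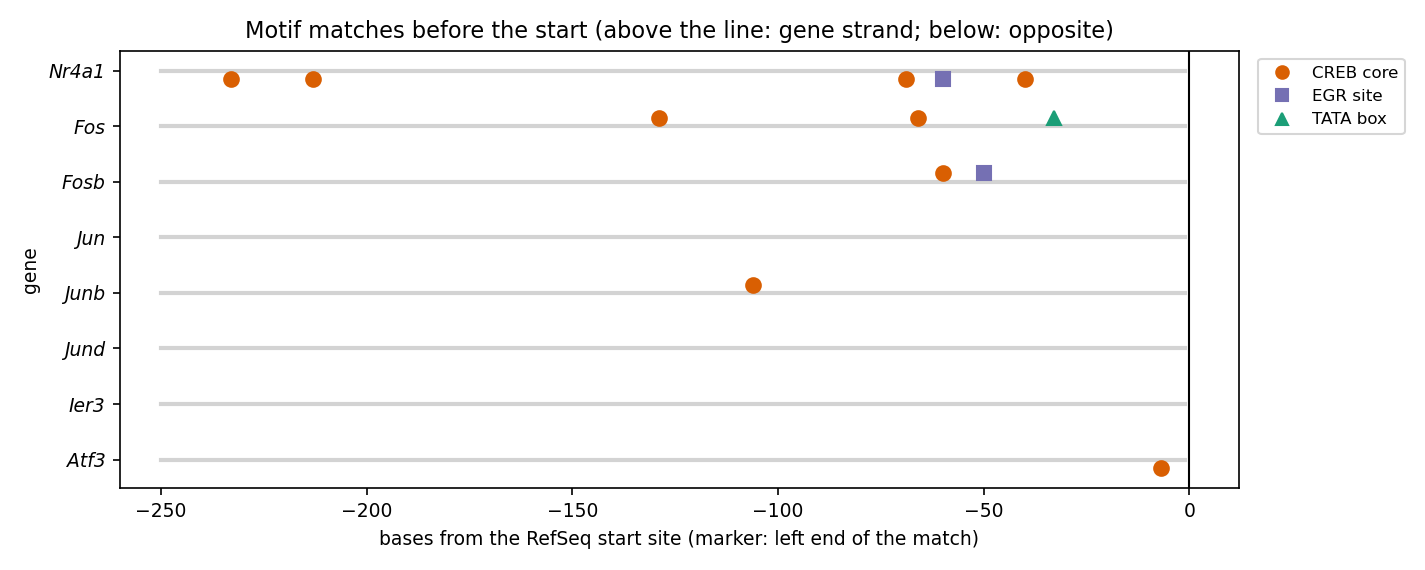
Motif matches in the 250 bases before the RefSeq start of the 8 genes with a promoter in the table. The horizontal axis gives bases from the start, and each marker is the left end of a match, above the line on the strand of the gene and below it on the opposite strand. The 4 CREB cores of Nr4a1 begin at -233, -213, -69 and -40, those of Fos at -129 and -66, and the lines of Jun, Jund and Ier3 are empty.

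Ratios are given as log2 of fasted over refed liver, so values above 0 are higher in the fasted liver. A gene was called when its limma p-value, adjusted over all probes tested, was under 0.10 and the groups differed 1.5-fold or more. A probe was tested if every fasted liver, or every refed liver, gave a signal well above background, as flagged by the scanner software. All 8 hepatocyte markers, Alb and Apoa1 among them, passed this filter. The refed liver of replicate 3 stood apart by its pancreatic acinar transcripts, whose 8 markers summed to 29871 intensity units there and to at most 1571 in the other refed livers, so values without replicate 3 are given below for Egr1, Nr4a1 and the genes of the 5 lists below whose call was lost without it. Of 19721 probes tested, 745 (3.78%) were called, 335 higher and 410 lower in the fasted liver. With arrays centred on their median in place of loess, the split was 230 higher and 635 lower. In whole liver, fewer cells of a type and less RNA per cell cannot be told apart, and p-values measure the spread over these 4 pairs of mice.

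Among the immediate early genes, 7 of 10 were tested, and 2 of the 7 rose in the fasted liver, Egr1 by 4.21-fold and Nr4a1 by 2.33-fold, against 1.7% of all tested probes called higher. None was called lower, against 2.08% of all tested probes, and at an unadjusted limma p under 0.05 the counts were 3 higher and 1 lower, against 9.87% and 11.8% of all tested probes. A rebuilt SAM, the test named in the methods, likewise called 2 higher and 0 lower, of 373 and 439 probes that it called in all. Both genes that rose encode DNA-binding factors outside the AP-1 family. None of the 5 AP-1 genes was called, and neither was Atf3, Ier2 or Ier3. Fos, Junb and Ier3 were too dim to be tested, and Fosb and Atf3 passed that filter through the refed livers only. The median log2 ratio of the 7 tested genes was 0.31, beside -0.00099 over all tested probes, and it was -0.03 without replicate 4, where Jun was the middle gene.

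**Figure D2:**
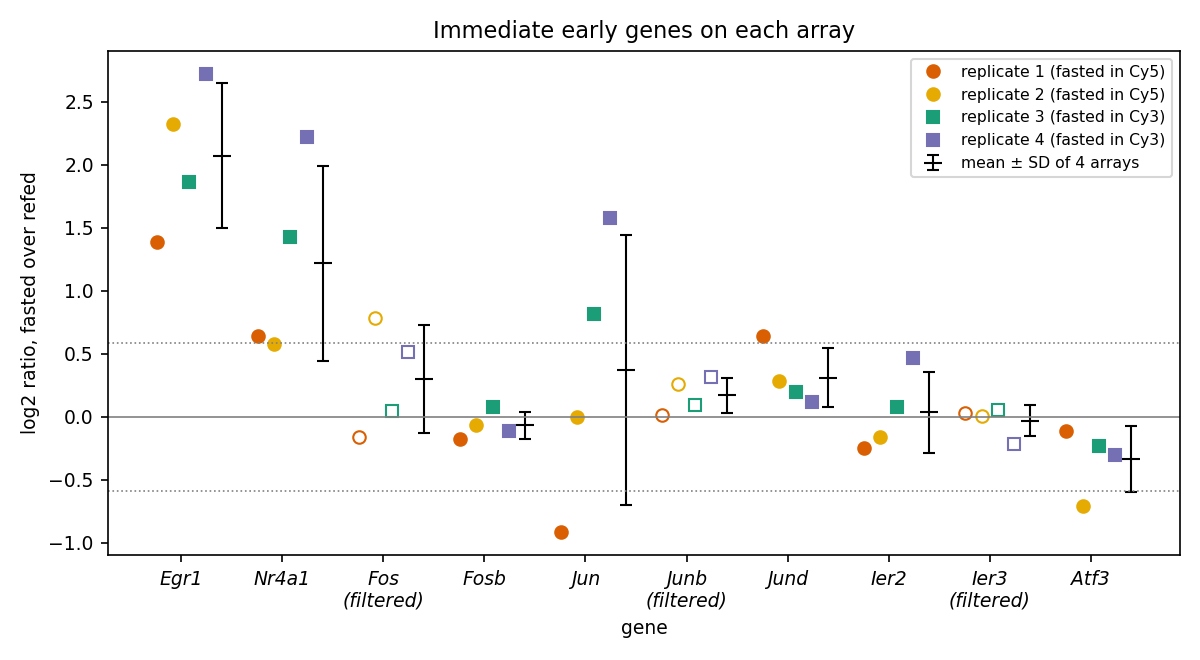
Log2 ratio of fasted over refed liver for each of the 10 genes on each of the 4 arrays. Circles are arrays with the fasted liver in Cy5, squares those with it in Cy3, open symbols are genes too dim to be tested, bars are the mean ± SD of the 4 arrays, and dotted lines mark 1.5-fold. The 4 points of Egr1 and of Nr4a1 lie above 0, those of Jun run from -0.92 to 1.58, and single points of Fos, Jund and Atf3 lie beyond the dotted lines, at 0.78, 0.64 and -0.71.

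Egr1 encodes a zinc finger transcription factor that is switched on by growth factor and stress signals. Its normalized log2 intensity in the fasted livers was 9.36, 9.38, 9.63 and 9.94 on replicates 1 to 4. In the refed livers it was 7.97, 7.05, 7.77 and 7.22. Every fasted liver was above every refed liver, a separation without overlap that Nr4a1 and Jund also showed. Over all tested probes 13.6% did so in either direction, 5.81% with the fasted and 7.78% with the refed livers higher. The log2 ratios of the 4 arrays were 1.39, 2.32, 1.86 and 2.72, with a mean of 2.07 ± 0.58 (SD) and a 95% interval of 1.57 to 2.58. The adjusted p from limma was 0.00752, and Egr1 ranked 13 by rise among 19721 probes. The raw signal was 14.1 to 40.4 times the local background in the fasted and 4 to 8.22 times in the refed livers. Without replicate 3 the mean ratio was 2.14 with an adjusted p of 0.0355. The mean was 1.86 with the fasted liver in Cy5 and 2.29 with it in Cy3, and the dye effect of -0.22 had an adjusted p of 0.502.

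Nr4a1 (probe at chr15:101105071-101105130 in mm9) encodes an orphan nuclear receptor, also known as Nur77, that acts without a known physiological ligand. Its normalized log2 intensity in the fasted livers was 8.13, 8.03, 8.64 and 9.99. In the refed livers it was 7.49, 7.46, 7.22 and 7.77. The groups did not overlap, and most of the spread lay in the fasted livers, where replicate 4 was highest. The log2 ratios were 0.64, 0.58, 1.43 and 2.22, with a mean of 1.22 ± 0.77 (SD), a 95% interval of 0.56 to 1.88 and an adjusted p of 0.0579. Without replicate 3 the mean was 1.15 and the adjusted p 0.192, so the call was lost without that array. The mean was 0.61 with the fasted liver in Cy5 and 1.82 with it in Cy3. The dye effect, fitted as a second term in limma, was -0.61 for Cy5 over Cy3 with an adjusted p of 0.0543, and 14.8% of all tested probes had a dye effect at an adjusted p under 0.10. With that term the adjusted p of the fasting difference was 0.00388. Each orientation holds different livers, so dye and liver cannot be told apart in this difference.

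The rise of Egr1 exceeded that of Nr4a1 on each of the 4 arrays. The difference of their log2 ratios was 0.75, 1.74, 0.43 and 0.50, with a mean of 0.86 ± 0.61 (SD). An exact sign-flip test, two-sided, gave p = 0.125, the smallest p this test can give with 4 arrays, so it adds nothing to the shared sign.

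The 5 AP-1 genes encode the subunits of a dimeric factor that pairs a FOS with a JUN protein or 2 JUN proteins. Jun (probe at chr4:94716928-94716987 in mm9), the most potent activator among the JUN proteins, varied most. Its normalized log2 intensity in the fasted livers was 8.88, 9.43, 10.24 and 10.56, and in the refed livers 9.80, 9.42, 9.42 and 8.98. The groups overlapped, with the lowest of all 8 livers and the highest among the fasted. The log2 ratios were -0.92, 0.00, 0.82 and 1.58, so Jun was lower in the fasted liver of replicate 1, equal on replicate 2 and higher on the others. The mean of 0.37 ± 1.07 (SD) had a 95% interval of -0.53 to 1.28 and an adjusted p of 0.645. An interval this wide leaves a difference of 1.5-fold undetectable in these livers. Its mean was -0.46 with the fasted liver in Cy5 and 1.20 with it in Cy3, and the dye effect of -0.83 had an adjusted p of 0.0566 in limma. With the dye term the adjusted p of the fasting difference was 0.22.

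Jund (probe at chr8:73224436-73224495 in mm9) encodes the JUN protein that is present in resting cells and is known as the least inducible of the 3. Its normalized log2 intensity in the fasted livers was 11.60, 11.42, 11.20 and 11.30, and in the refed livers 10.96, 11.14, 11.00 and 11.18. The fasted livers were all above the refed livers, by a small margin. The mean log2 ratio of 0.31 ± 0.23 (SD) equalled 1.24-fold, with a 95% interval of 0.06 to 0.56 and an adjusted p of 0.148, so Jund was not called. Without replicate 1 the mean was 0.20 and the adjusted p from limma 0.286. With a dye term the adjusted p was 0.0429 and the change was still under 1.5-fold. Its raw signal was 64.6 to 107 times the local background over all 8 livers.

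Junb and the FOS genes were dim. Junb (probe at chr8:87501881-87501940 in mm9) encodes a JUN protein that can restrain Jun, and its probe was well above background in the fasted livers of replicates 3 and 4 and in none of the refed livers. Its log2 ratios were 0.02, 0.26, 0.09 and 0.31, with a mean of 0.17 ± 0.14 (SD). The groups overlapped, since the fasted livers ran from 6.23 to 6.44 and the refed livers from 6.01 to 6.26, and these ratios compare signals near the background, since no refed liver was well above it.

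Fos (probe at chr12:86817900-86817959 in mm9), the prototype immediate early gene, was well above background in the fasted livers of replicates 2, 3 and 4 and in the refed livers of replicates 1, 3 and 4. Of its 10 spots, 2, 10, 10 and 10 were well above background in the fasted livers and 9, 1, 10 and 10 in the refed livers. The log2 ratios were -0.16, 0.78, 0.05 and 0.51, with a mean of 0.30 ± 0.43 (SD). The mean was 0.45 without replicate 1 and 0.13 without replicate 2. The SD of the raw log2 ratio over the 10 spots of 1 array was 0.20 to 0.31, which measures the spread of spots and not of livers. When all probes were tested without a filter, Fos had an adjusted p of 0.534 in limma. Fosb (probe at chr7:19888168-19888227 in mm9), a close relative of Fos, had log2 ratios of -0.17, -0.06, 0.08 and -0.11, with a mean of -0.07 ± 0.11 (SD) and an adjusted p of 0.685. Its levels lay between 6.32 and 6.58 in all 8 livers, and the fasted and refed groups overlapped.

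Atf3 (probe at chr1:192994547-192994606 in mm9) encodes a stress-induced factor of the CREB/ATF family that can repress its targets. Its normalized log2 intensity was 6.31, 6.41, 6.48 and 6.48 in the fasted and 6.42, 7.12, 6.71 and 6.78 in the refed livers. Each fasted liver was below the refed liver on its own array, although the groups overlapped. The log2 ratios were -0.11, -0.71, -0.23 and -0.30, with a mean of -0.34 ± 0.26 (SD), a 95% interval of -0.61 to -0.07 and an adjusted p of 0.145. Without replicate 2 the mean was -0.21 and the adjusted p from limma 0.298. Atf3 entered the test only through the refed livers, where it was higher, so the filter itself favoured a ratio below 0, and it was not tested when both channels had to be above background. Atf3 was not called, but it was called lower when the background was subtracted plainly, with a log2 ratio of -0.77 and an adjusted p of 0.0702. The processed signals of the scanner software also called it lower, with a log2 ratio of -0.98 and an adjusted p of 0.0583. Atf3 was well above background in the fasted livers of replicates 2, 3 and 4 and in all 4 refed livers. Its raw signal was 1.43 to 3.38 times the local background over the fasted and 2.33 to 5.17 times over the refed livers.

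Ier2 and Ier3 were named for their rapid induction, Ier2 encoding a nuclear protein and Ier3 a regulator of cell survival. Ier2 (probe at chr8:87186214-87186273 in mm9) had log2 ratios of -0.24, -0.16, 0.08 and 0.47, with a mean of 0.04 ± 0.32 (SD) and an adjusted p of 0.916. With the added offset of 50, its 95% interval of -0.27 to 0.35 lay within 1.5-fold in either direction. That offset makes the ratios of dim probes smaller, so the interval does not bound the difference without it. The levels overlapped, with the fasted livers from 6.91 to 7.48 and the refed livers from 7.01 to 7.24. Ier3 (probe at chr17:35959528-35959587 in mm9) was not well above background in any of the 8 livers, and its log2 ratios of 0.03, 0.00, 0.06 and -0.21 carry no fold.

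**Figure D3:**
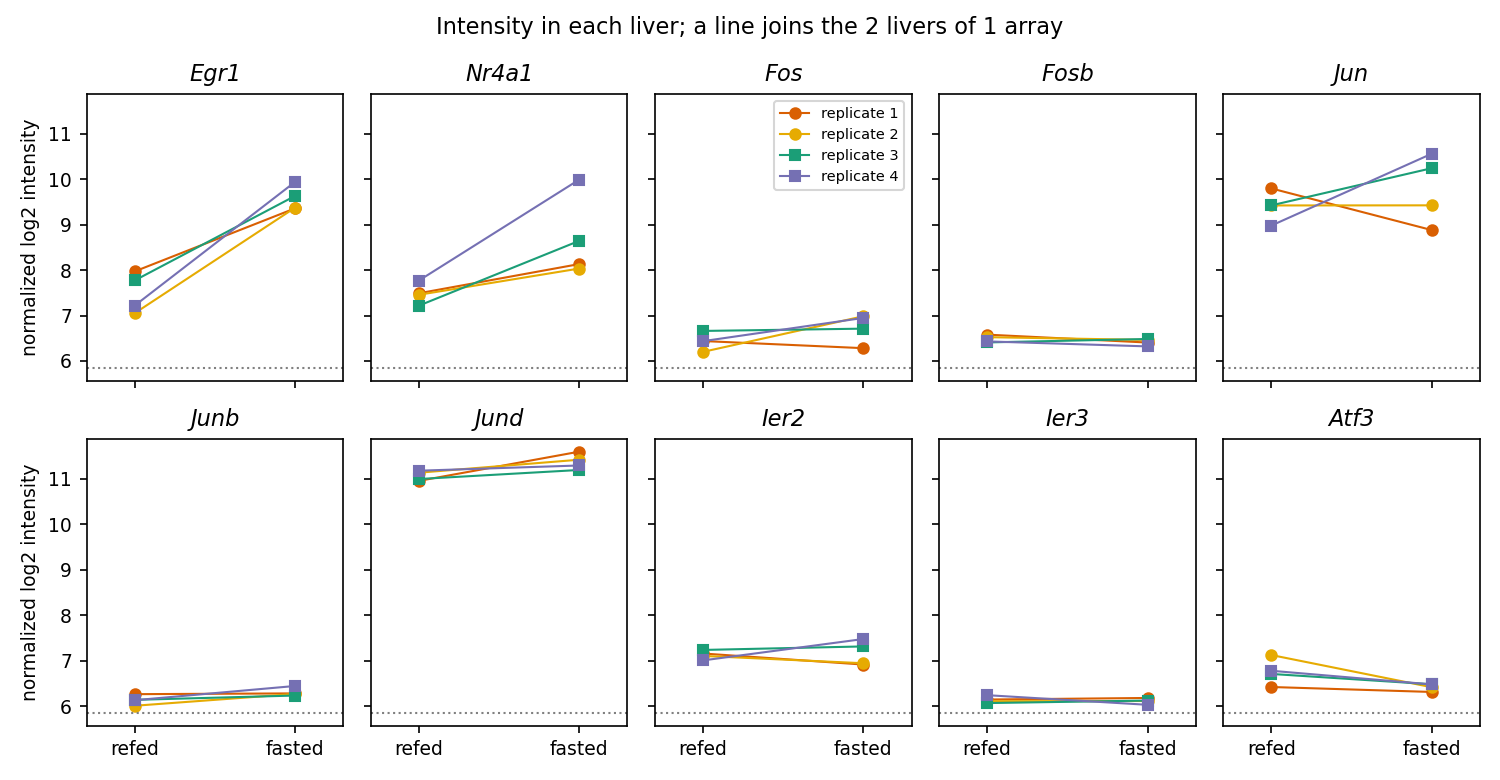
Normalized log2 intensity of the 10 genes in each of the 8 livers, with refed on the left and fasted on the right of each panel. A line joins the livers of 1 array, circles are arrays with the fasted liver in Cy5 and squares those with it in Cy3, and the dotted line marks the mean lowest level of a probe well above background (5.89 in fasted and 5.82 in refed livers). The lines of Egr1 and Nr4a1 all climb and those of Jun cross. Near the dotted line, those of Junb rise slightly and those of Fosb and Ier3 are nearly flat.

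Markers of other cell types were set beside these results. The 8 immune markers, which include macrophage and lymphocyte genes, summed to 3592 to 4613 intensity units in the fasted and 2911 to 4513 in the refed livers. The 5 endothelial markers summed to 5253 to 5898 and 4462 to 4852. The 4 blood markers tested had a median log2 ratio of 1.37, -0.27, 1.75 and 0.24 on replicates 1 to 4. No gene of these lists was called, at 6, 5 and 4 genes tested. Of the stellate and fibroblast, bile duct, pancreatic acinar and adipose markers 5, 3, 4 and 1 were tested. None of them was called, although the acinar median log2 ratio was -3.37 on replicate 3. Over all tested probes 3.78% were called, 1.7% higher and 2.08% lower. Of the 8 hepatocyte markers 1 was called higher, and their median log2 ratio was 0.33, 0.38, -0.04 and -0.04 on replicates 1 to 4. Summed endothelial markers were higher in every fasted liver than in any refed liver, as were Egr1, Nr4a1, Jund and 5.81% of all tested probes. The part of any of these markers in the results of the immediate early genes was not tested.

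The pattern of Egr1 over the 4 arrays was closest to those of Lpin2, Gadd45g, AI132487, Zbtb16 and Mfsd2a, measured as the Euclidean distance of 4 log2 ratios. Lpin2, which encodes a phosphatidate phosphatase of lipid synthesis, was nearest at a distance of 0.45 with ratios of 1.09, 2.07, 1.63 and 2.74. Gadd45g, a growth arrest and stress gene, followed at 0.70 with a mean ratio of 2.34. AI132487, which RefSeq names Slc25a47 and which encodes a mitochondrial carrier, lay at 0.74, the zinc finger factor Zbtb16 at 0.75 and the lipid transporter Mfsd2a at 0.86. Their mean ratios of 1.88 to 2.34 follow from the choice by distance and are given as a description.

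Of 20 relatives from the same families 13 were tested and none was called, by limma or by SAM, beside 3.78% of all tested probes. At an unadjusted limma p under 0.05 there were 1 higher and 2 lower, beside 9.87% and 11.8% of all tested probes, so these counts do not set the relatives apart. Their median ratio was -0.02. Egr2, Egr3, Egr4, Nr4a3 and Fosl1 were not well above background in any liver, and Nr4a2 and Ier5 were so in only some. Fosl2, a FOS protein gene, had a mean ratio of 0.27 ± 0.12 (SD) with an adjusted p of 0.109. The upstream signaling list held 21 genes, for SRF and its partners, CREB and the kinases that feed them. Of these 20 were tested and 1 (5%) was called, beside 3.78% of all tested probes, which does not set the list apart. The called gene was Mkl2, an actin-regulated coactivator of SRF, at 0.66 ± 0.15 (SD) with an adjusted p of 0.0142. Srf itself had a ratio of -0.20 and Creb1 one of -0.11, neither of them called, and the median of the 20 was -0.02.

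Genes that shut off the immediate early response were mixed. Of 16 genes for feedback and mRNA decay 12 were tested, of which 2 rose and 1 fell, and SAM called 3 higher and 1 lower, with the mRNA decay factor gene Zfp36l2 in addition. Over all tested probes limma called 1.7% higher and 2.08% lower, and SAM called 373 and 439 of 19721. Dusp1, a phosphatase that switches off stress MAP kinases and is itself an immediate early gene, had ratios of 0.66, 2.33, 1.54 and 1.48 and a mean of 1.5 ± 0.68 (SD) with an adjusted p of 0.0253. Nfkbia, the inhibitor of NF-kappaB, rose by 0.73 ± 0.28 (SD) with an adjusted p of 0.0255. Dusp6, the phosphatase that acts on ERK, fell by 0.76 on the log2 scale with an adjusted p of 0.0106. The median of the 12 was 0.17. Without replicate 3 neither gene that rose was called, with a ratio of 1.49 and an adjusted p of 0.101 for Dusp1, and 0.67 and 0.110 for Nfkbia.

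Other rapidly induced genes gave 3 that rose and none that fell among 22 tested of 23, with 6 higher and 0 lower at an unadjusted limma p under 0.05 and 5 higher and 0 lower by SAM. Over all tested probes limma called 1.7% higher and 2.08% lower, and 9.87% and 11.8% were so at that unadjusted p. SAM called 373 higher and 439 lower of 19721. Btg1, an antiproliferative gene, rose by 1.37 ± 0.32 (SD) with an adjusted p of 0.00621. Errfi1, a feedback inhibitor of the EGF receptor, rose by 1.18 ± 0.54 (SD) with an adjusted p of 0.0269. Sgk1, a glucocorticoid-induced kinase, rose by 0.90 ± 0.64 (SD) with an adjusted p of 0.0782. Sgk1 was not called without replicate 1, 2 or 3, with ratios of 0.68, 0.78 and 1.003 and adjusted p of 0.151, 0.224 and 0.171. The median of the 22 was 0.15, and without replicate 1 it was 0.36. Myc, a growth factor-induced gene chosen for mention after its values were seen, had ratios of -1.44, -0.11, 0.64 and 0.88, a scatter in which replicate 1 was lowest and replicate 4 highest, as for Jun.

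Genes of the integrated stress response, to which Atf3 also belongs, went both ways. All 12 were tested, 2 rose and 2 fell, and the median was 0.27, or 0.03 without replicate 1. Over all tested probes 1.7% were called higher and 2.08% lower. Ddit3, which encodes the stress factor CHOP, fell by 1.81 on the log2 scale with ratios between -2.02 and -1.61 and an adjusted p of 0.0017. Nupr1, a stress-induced chromatin protein, fell by 0.997 with an adjusted p of 0.069. The liver hormone gene Fgf21 rose by 1.11 ± 0.69 (SD) with an adjusted p of 0.0559, and Trib3, a pseudokinase gene, rose by 0.75 ± 0.49 (SD) with an adjusted p of 0.069. Atf4, the central factor of this response, had a ratio of -0.36 ± 0.28 (SD) and an adjusted p of 0.137. Among the called genes only Ddit3 was called whichever replicate was left out. Fgf21 was not called without replicate 2 or 3, with ratios of 1.08 and 1.19 and adjusted p of 0.170 and 0.152. Nupr1 was not called without replicate 2, 3 or 4, with ratios of -0.91, -0.82 and -0.94 and adjusted p of 0.204, 0.221 and 0.199. Trib3 was under the fold limit without replicate 1, at a ratio of 0.54, and over the adjusted p limit without replicate 2 or 3, with ratios of 0.80 and 0.73 and adjusted p of 0.162 and 0.216.

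**Figure D4:**
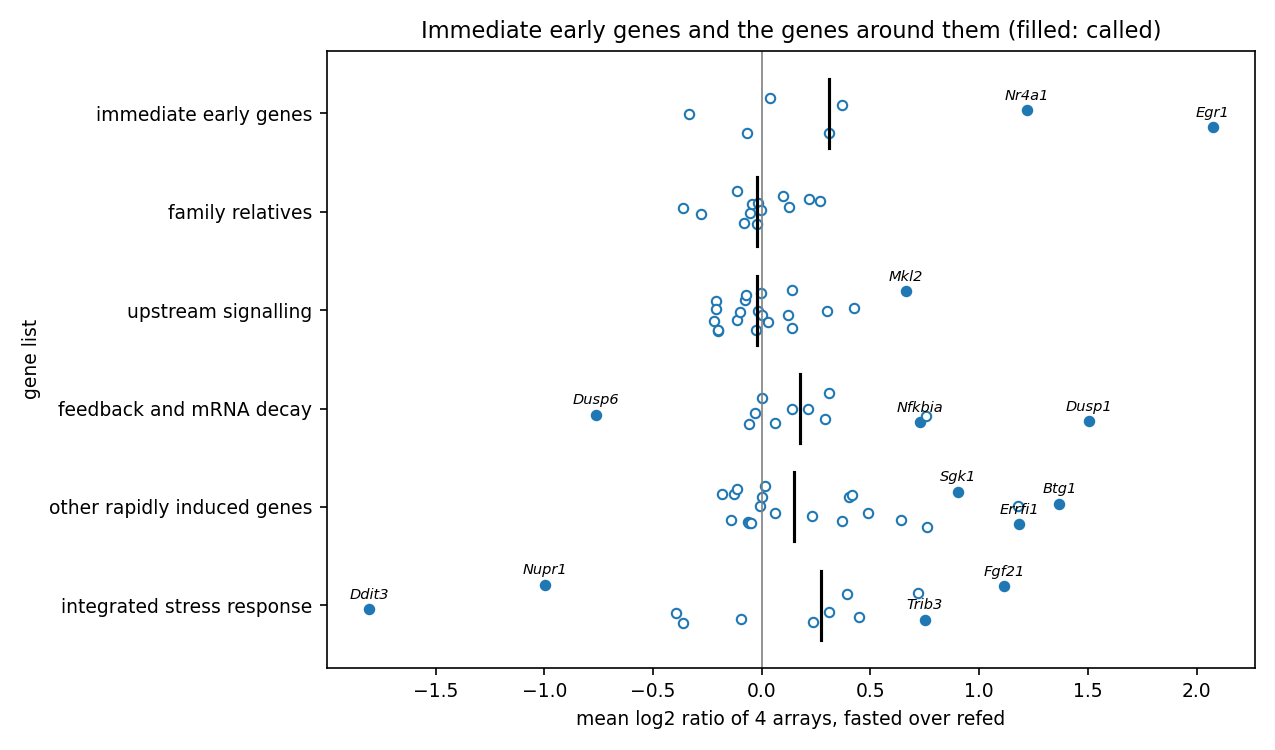
Mean log2 ratio of fasted over refed liver of the tested immediate early genes and of the tested genes in 5 lists around them, 1 circle a gene. Filled circles were called, and black bars mark the median of each list. Egr1 at 2.07 lies farthest to the right, no family relative is filled, and Ddit3 at -1.81 lies farthest to the left.

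Of the 11 list genes that were called, 10 had a RefSeq promoter and 6 of these held at least 1 CREB core. Dusp1 held 3, Btg1, Errfi1 and Trib3 held up to 2 in a promoter, and Fgf21 and Sgk1 held 1. The genes that fell, Dusp6, Ddit3 and Nupr1, held none, and neither did Nfkbia. These counts are set against the 17.8% of all promoters with at least 1 core only as a description, since genes with several promoters had more chances to match.

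Across 23 settings of background, scaling, filter, test and arrays left out, the reported one included, Egr1 was called in 22 and Nr4a1 in 21. Over the settings that called them, the log2 ratios ran from 1.86 to 2.58 for Egr1 and from 0.88 to 1.57 for Nr4a1. Nr4a1 was not called without replicate 3, and the exception for both genes was a background correction fitted on all spots, which gave ratios of 1.03 and 0.38 with an adjusted p of 0.559 for each, and under which 5 probes in all were called higher and 15 lower. Jun was called in none of the 23, and its ratio was below 0 in 2 of them.

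**Figure D5:**
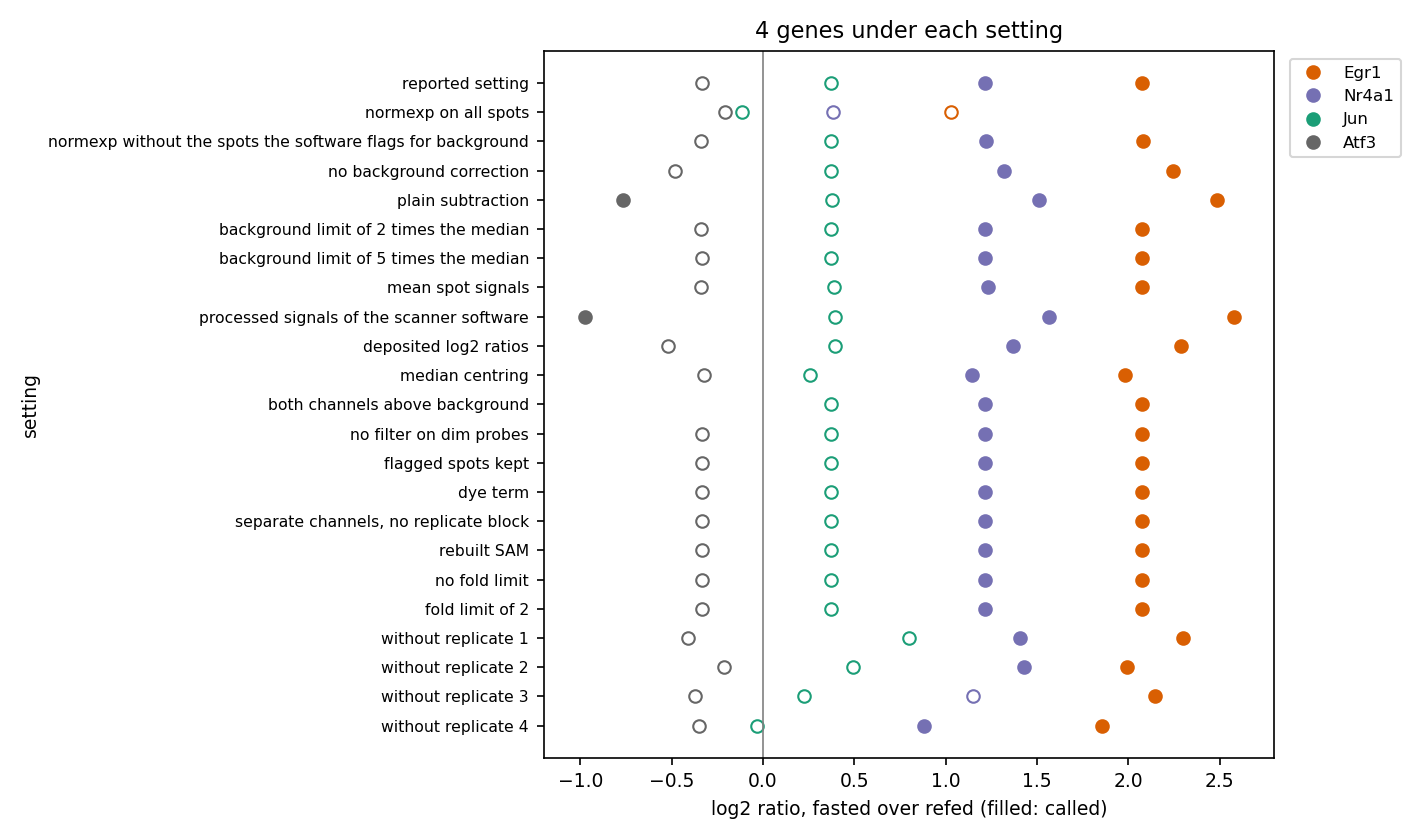
Log2 ratio of fasted over refed liver for Egr1, Nr4a1, Jun and Atf3 under each setting, with filled circles where the gene was called. Egr1 lies between 1.03 and 2.58 and Nr4a1 between 0.38 and 1.57, both open at their lowest value, and Atf3 is filled only under plain subtraction and under the processed signals.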

How the data were processed

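Liver RNA of 4 fasted and 4 refed mice (200 ng each) was hybridized in pairs to 4 two-colour arrays, with the dyes swapped on 2 of them. The scanner files deposited by the authors give raw intensity per spot and local background for each channel, with quality flags and a processed intensity. Per the file headers they were made with Feature Extraction 10.10.1.1 and probe positions are in mm9. The authors also deposited log2 ratios normalized by loess in limma, used here as an alternative, with the background step not given in the sources used here. All arrays came from 1 slide and 1 scan. The median signals were processed in R 4.3.3 using limma 3.58.1. Of 44397 spots per array, those with a local background over 3 times the array median were left out (55 in all), the rest were corrected by normexp with an offset of 50, and loess was applied within each array. Control spots and flagged outlier spots were left out, no spot was saturated, and spots of a probe were averaged. A probe counted as well above background on an array where at least 0.5 of its spots were flagged so, and 19721 of 39429 probes, with 16085 gene names, were kept. Median raw signals were 40 to 96 per channel over backgrounds of 20 to 35, and the number of arrays limits the precision. Ratios were tested with lmFit and eBayes, two-sided, without a dye term, with p-values adjusted by Benjamini-Hochberg across the kept probes, and 95% intervals come from that fit. Levels per liver came from loess followed by Aquantile. A gene with several kept probes was read by its brightest. The methods name SAM at the same limits, which was rebuilt as an alternative.

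On simulated ratios with 200 of 19721 probes changed by 1.5 on the log2 scale, the test recovered 90.5% without and 85.5% with simulated dye effects. Named genes are the 10 members, every called gene of 5 lists up to the 5 largest by size, and the 5 genes nearest to Egr1. The other list genes and markers that are named, such as Srf, Creb1, Fosl2, Atf4, Zfp36l2, Myc and the relatives too dim to be tested, fall outside that rule and were named after their values were seen. The members, the gene lists and the background limit were chosen with earlier results of these data known. Promoter sequences are from RefSeq (GRCm38.p6). Genes were named as in the array files, and naming them through the RefSeq accession gave the same 10 probes.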

Additional observations from a re-analysis of the deposited data

Results flagged for a closer look

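The median log2 ratio of the 13 tested family relatives was 0.01, -0.17, 0.03 and 0.02 on replicates 1 to 4, so replicate 2 lay apart from the other arrays. Its gap to the nearest array was 0.905 of the whole range. Of 36 sets of 4 values examined in this way 1 was that extreme, and chance alone gives about 1 in 20.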

How the results depend on the processing

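Under normexp fitted on all spots 0 member genes were called higher, and the log2 ratios were 1.03 for Egr1, 0.38 for Nr4a1, -0.11 for Jun and -0.097 for Ier2, with a median of -0.058 over the members and 0.071 over the stress response list. Plain subtraction and the processed signals each called 1 member, Atf3, lower, and Ier2 was -0.018 under subtraction. Centring on the median in place of loess moved the medians of upstream signaling to -0.103 and of feedback genes to 0.065, and the latter was 0.062 without a filter. Leaving out each replicate, 1 to 2 members were called higher and 0 lower. The medians then ran from -0.032 to 0.32 for the members, 0.099 to 0.36 for other rapidly induced genes, 0.031 to 0.33 for the stress response, 0.097 to 0.18 for feedback genes and -0.080 to -0.025 for upstream signaling. Jun ran from -0.032 without replicate 4 to 0.80 without replicate 1, and Ier2 from -0.11 to 0.13. Each array holds a fasted and a refed liver, so the reported test is paired by array. Fitted as separate channels with no replicate block, 2 members were called higher and 0 lower, and Dusp6 lost its call. That fit still models the 2 channels of a spot as correlated, so it does not show an unpaired test. Over all probes, 5 were called higher and 15 lower with normexp on all spots, 550 and 713 under subtraction, 686 and 904 with the processed signals, 208 and 257 without replicate 3, and 230 and 635 under median centring. Without a fold limit 935 and 1208 were called, and at 2-fold 99 and 132. All 11 called list genes lost their call under normexp on all spots, with Ddit3 at -0.98, Dusp1 at 0.83, Nfkbia at 0.44, Fgf21 at 0.43, Nupr1 at -0.35 and Mkl2 at 0.37. Mkl2 also lost its call under median centring, and Sgk1, Nupr1 and Trib3 without a filter on dim probes. Asking both channels to be above background dropped Fosb and Atf3. The causes of these shifts were not tested. Fos, Junb, Ier3, Fosb and Atf3 were close to background, so differences in them were measured poorly.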
